A study of Mus musculus with 24 samples.

Results

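The 10 genes described here are skeletal muscle genes measured in RNA sequencing libraries of the mouse lacrimal gland (LG), the gland that makes the watery part of tears. They are Myod1, Myog, Myh3, Myh8, Mylpf, Actc1, Acta1, Tnnt3, Tnnc2 and Ckm, taken as a list of genes of the muscle lineage. All 10 were found by symbol among the 63862 genes and assembled loci listed for each library. Of the 10, 5 (Myog, Myh3, Actc1, Tnnt3 and Ckm) had a mean of at least 0.5 FPKM (fragments per kilobase of exon scaled to library size, a level corrected for gene length) over the gland libraries and could be tested, 4 (Myod1, Myh8, Tnnc2 and Mylpf) were below that level, and Acta1 was listed at 0. Myog and Actc1 reached that mean only through the E17.5 libraries, where they were high, so that their tests of E17.5 against another stage are given as descriptions.

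The gland libraries were 3 of LG at the embryonic stage E17.5, 3 at E19.5 (days of gestation) and 3 of adult LG, all from C57BL/6 mice, and the sources used here name no sorting of cells before the RNA of the gland was taken. LG stem cells (LGSCs) were grown from the dissociated glands of C57BL/6 mice 6 to 8 weeks old as spheres in Matrigel with EGF, FGF10, Wnt3A and the ROCK inhibitor Y-27632, and gave 11 libraries at passage 2 after 5 (2 libraries), 7, 10 and 14 days (3 each) and 1 library at passage 10 after 7 days. The labels do not give the age of the adult glands, nor how many animals or litters went into a gland library, so that the p-values measure the spread between these libraries. RNA of whole glands cannot tell fewer muscle cells from less RNA per muscle cell.

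Skeletal muscle forms when myoblasts, committed by factors such as MyoD and taken into differentiation by myogenin, stop dividing and fuse into fibres. They switch on the proteins of the sarcomere, in which thick filaments of myosin slide along thin filaments of actin. Developing fibres first use embryonic and perinatal myosins, cardiac actin and the gamma subunit of the acetylcholine receptor, and replace them after birth by adult myosins, skeletal actin and the epsilon subunit. The secretory tissue of the LG holds myoepithelial cells, which contract with smooth muscle actin and not with the sarcomere of skeletal muscle. Skeletal muscles lie near the gland.

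The level of 1 read set the resolution. Recovered reads (the deposited values divided by the step that 1 read makes) numbered 6434281 to 9257025 in the gland and passage 2 libraries. A set of 3 reads of Myog stood for 0.208 to 0.258 FPKM at E17.5 and for 0.263 to 0.832 FPKM in the adult, where the 10 most abundant genes took 31.3% to 60.4% of the reads. A value of 0 was no reading of absence in the gland and passage 2 libraries. Of 405 protein-coding genes at or above 100 FPKM in the passage 10 library, 34 (8.395%) were listed at 0 in each of the 20 others, among them the epithelial genes Epcam (261 FPKM at passage 10) and Krt8 (414 FPKM), and Gapdh, which every cell uses, was listed at 0 there too. Acta1, the skeletal actin of adult fibres, shares that pattern, with 0 in 20 libraries and 0.63 FPKM at passage 10 (23 reads). Levels were therefore compared mainly between libraries for 1 gene, and the shares and ratios of genes within a library given below hold for the listed values, from which an unknown part of the reads of a gene may be missing.

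The summed reads of the 10 genes were lower at each later stage of the gland. There were 511, 1665 and 422 such reads in replicates 1 to 3 at E17.5, or 67.6, 180 and 54.4 RPM (reads of the gene in 1000000 recovered reads). At E19.5 there were 234, 221 and 231 (26.6, 24.2 and 26.3 RPM), and in the adult 2, 14 and 29 (0.311, 1.72 and 3.45 RPM). The 3 stages did not overlap in this sum, E17.5 replicate 2 lay far above the other glands, and the 3 libraries of E19.5 lay close together. The LGSC libraries of passage 2 had at most 2.09 RPM.

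**Figure D1:**
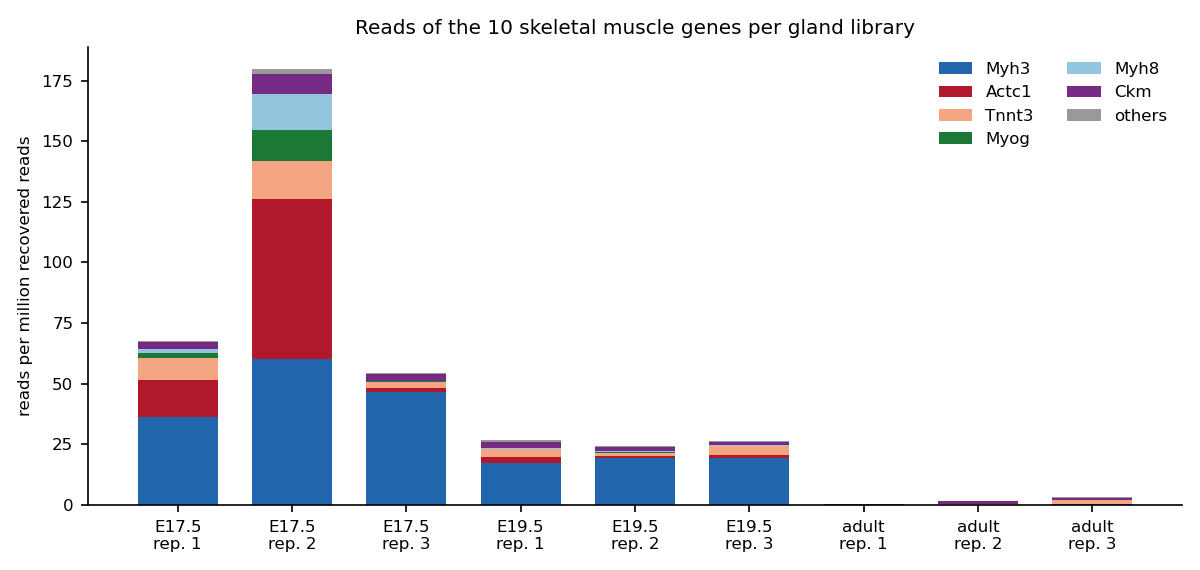
Reads of the 10 genes in RPM (reads in 1000000 recovered reads) in each gland library (vertical axis, from 0), stacked by gene, with others for Myod1, Acta1, Tnnc2 and Mylpf. Myh3 makes up most of the bar in E17.5 replicate 3 and in the E19.5 libraries, Actc1 makes up the largest share in E17.5 replicate 2, and the adult bars reach at most 3.45. Reads are not corrected for gene length, so that the longer Myh3 weighs more here than in FPKM.

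The promoters of 3 members are shown because Myog and Actc1 spread widely among the embryonic glands and Myh3 spread least. Each line gives 300 bases around the start of transcription, most of them before it, from RefSeq (build GRCm38.p6), 5′ to 3′ on the strand of the gene. Capitals mark E boxes (CANNTG, the letters that MyoD and myogenin bind), CArG boxes (bound by serum response factor, which drives actin genes) and MEF2 sites, searched on both strands, of which no match overlapped another. MEF2 sites were searched only in the form YTAWWWWTAR (Y is C or T, W is A or T, R is A or G). An unmarked window may hold a MEF2 site of another form. The windows lie at chr1:134289754-134290053 (Myog, plus strand), chr11:67078050-67078349 (Myh3, plus strand) and chr2:114052826-114053125 (Actc1, minus strand).
Myog: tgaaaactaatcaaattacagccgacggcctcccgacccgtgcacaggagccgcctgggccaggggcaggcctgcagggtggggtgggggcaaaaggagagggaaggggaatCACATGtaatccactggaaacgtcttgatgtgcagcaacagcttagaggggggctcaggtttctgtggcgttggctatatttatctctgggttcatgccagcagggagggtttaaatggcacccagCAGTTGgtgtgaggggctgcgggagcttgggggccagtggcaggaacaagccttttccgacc
Myh3: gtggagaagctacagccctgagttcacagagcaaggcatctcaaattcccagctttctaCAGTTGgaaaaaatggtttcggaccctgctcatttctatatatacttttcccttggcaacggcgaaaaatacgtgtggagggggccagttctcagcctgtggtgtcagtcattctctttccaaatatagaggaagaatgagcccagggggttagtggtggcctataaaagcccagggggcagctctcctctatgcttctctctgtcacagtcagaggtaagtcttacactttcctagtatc
Actc1: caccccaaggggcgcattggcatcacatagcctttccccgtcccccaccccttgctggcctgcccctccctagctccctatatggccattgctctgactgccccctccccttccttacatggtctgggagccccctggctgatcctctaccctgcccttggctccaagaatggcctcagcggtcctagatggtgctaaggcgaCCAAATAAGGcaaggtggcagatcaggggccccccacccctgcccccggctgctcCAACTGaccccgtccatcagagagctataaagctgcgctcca
The Myog window holds an E box CACATG starting 138 bases before the start and an E box CAGTTG starting 12 bases before it, the Myh3 window an E box CAGTTG starting 191 bases before it, and the Actc1 window a CArG box CCAAATAAGG starting 47 bases before it. Windows were found for 8 of the 10 genes (Myod1 and Tnnt3 have no entry). All 8 held an E box, as did 72.3% of all 32851 windows of this length, and 3 of 8 (Acta1, Ckm and Mylpf) held the form CAGCTG, against 16.3% of all. A CArG box was in 2 of 8 (Actc1 and Acta1, the second with the letters CCAAATATGG) and in 1.63% of all windows, and a MEF2 site of the form searched in 1 of 8 (Myh8) and in 3.19% of all.

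Of the regulators, Myog was read in every embryonic gland. Myog (ENSMUSG00000026459, chr1:134289989-134292548 on GRCm38, as are the positions below, all from GENCODE M21) encodes myogenin, which takes committed myoblasts into terminal differentiation. It stood at 1.29, 7.98 and 0.167 FPKM in E17.5 replicates 1 to 3, on 15, 115 and 2 reads. At E19.5 it stood at 0.0765, 0.149 and 0.0853 FPKM, on 1, 2 and 1 reads, and it was listed at 0 in the 3 adult glands. E17.5 replicates 1 and 2 were high, and E17.5 replicate 3 (2 reads) could not be told from the E19.5 libraries at this depth. Myod1 (ENSMUSG00000009471, chr7:46376474-46379099), which commits cells to the muscle lineage, had 3 and 11 reads in E17.5 replicates 1 and 2 (0.207 and 0.613 FPKM), 1 read in E19.5 replicate 1 and none in the other gland libraries or in any LGSC library.

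Myh3 was the steadiest of the 10 among the embryonic glands. Myh3 (ENSMUSG00000020908, chr11:67078300-67102291) encodes the embryonic myosin heavy chain, the motor of the first fibres. It stood at 5.79, 9.52 and 7.49 FPKM at E17.5, on 273, 556 and 363 reads, and at 2.87, 3.23 and 3.62 FPKM at E19.5, on 152, 176 and 172 reads. In the adult it was listed at 0 in replicates 1 and 2 and at 0.0866 FPKM in replicate 3, on 4 reads. The 3 stages did not overlap, with means of 7.60 ± 1.87 FPKM at E17.5 and 3.24 ± 0.375 at E19.5 (SD, n = 3). Myh8 (ENSMUSG00000055775, chr11:67277124-67308634), the perinatal myosin heavy chain, stood at 0.131, 1.21 and 0.0106 FPKM at E17.5 (12, 137 and 1 reads) and at 0.0389, 0.0283 and 0.0217 FPKM at E19.5 (4, 3 and 2 reads), and was listed at 0 in the adult. Its stages overlapped because E17.5 replicate 3 was the lowest of the 6 embryonic libraries. Mylpf (ENSMUSG00000030672, chr7:127208890-127214298), the regulatory light chain of fast fibres, had at most 5 reads in any gland library, with 0, 0.488 and 0.235 FPKM at E17.5, 0.538, 0 and 0.480 at E19.5 and 0, 0.594 and 0.494 in the adult, so that no order of stages could be read.

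Among the thin filament genes Actc1 varied most between libraries. Actc1 (ENSMUSG00000068614, chr2:114047282-114053548) encodes the cardiac actin, which developing skeletal fibres use as well. It stood at 9.37, 39.2 and 0.850 FPKM at E17.5, on 118, 612 and 11 reads, at 1.48, 0.550 and 0.866 FPKM at E19.5, on 21, 8 and 11 reads, and at 0, 0 and 0.081 FPKM in the adult. E17.5 replicates 1 and 2 were high, while E17.5 replicate 3 lay within the range of E19.5. Acta1 (ENSMUSG00000031972, chr8:123891769-123894751) was listed at 0 in every gland library, as given above. Tnnt3 (ENSMUSG00000061723, chr7:142498836-142516009), the troponin T of fast fibres, stood at 5.52, 9.63 and 1.58 FPKM at E17.5 (68, 147 and 20 reads), at 2.17, 0.984 and 2.50 FPKM at E19.5 (30, 14 and 31 reads), and at 0, 0.399 and 0.994 FPKM in the adult (0, 2 and 12 reads). Its E17.5 and E19.5 values overlapped, and adult replicate 3 lay just above E19.5 replicate 2. Tnnc2 (ENSMUSG00000017300, chr2:164777161-164779967), the calcium-binding troponin C of fast fibres, had 2 reads in E17.5 replicate 2 and 1 in E19.5 replicate 2 and none in the other gland libraries.

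Ckm was the member read in all 9 glands. Ckm (ENSMUSG00000030399, chr7:19404776-19422841) encodes the muscle creatine kinase, which buffers ATP in contracting fibres. It stood at 0.971, 2.85 and 0.987 FPKM at E17.5, at 0.785, 0.649 and 0.438 at E19.5 and at 0.285, 1.08 and 0.360 in the adult. E17.5 lay above E19.5, and adult replicate 2 (10 reads) lay within the E17.5 range.

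**Figure D2:**
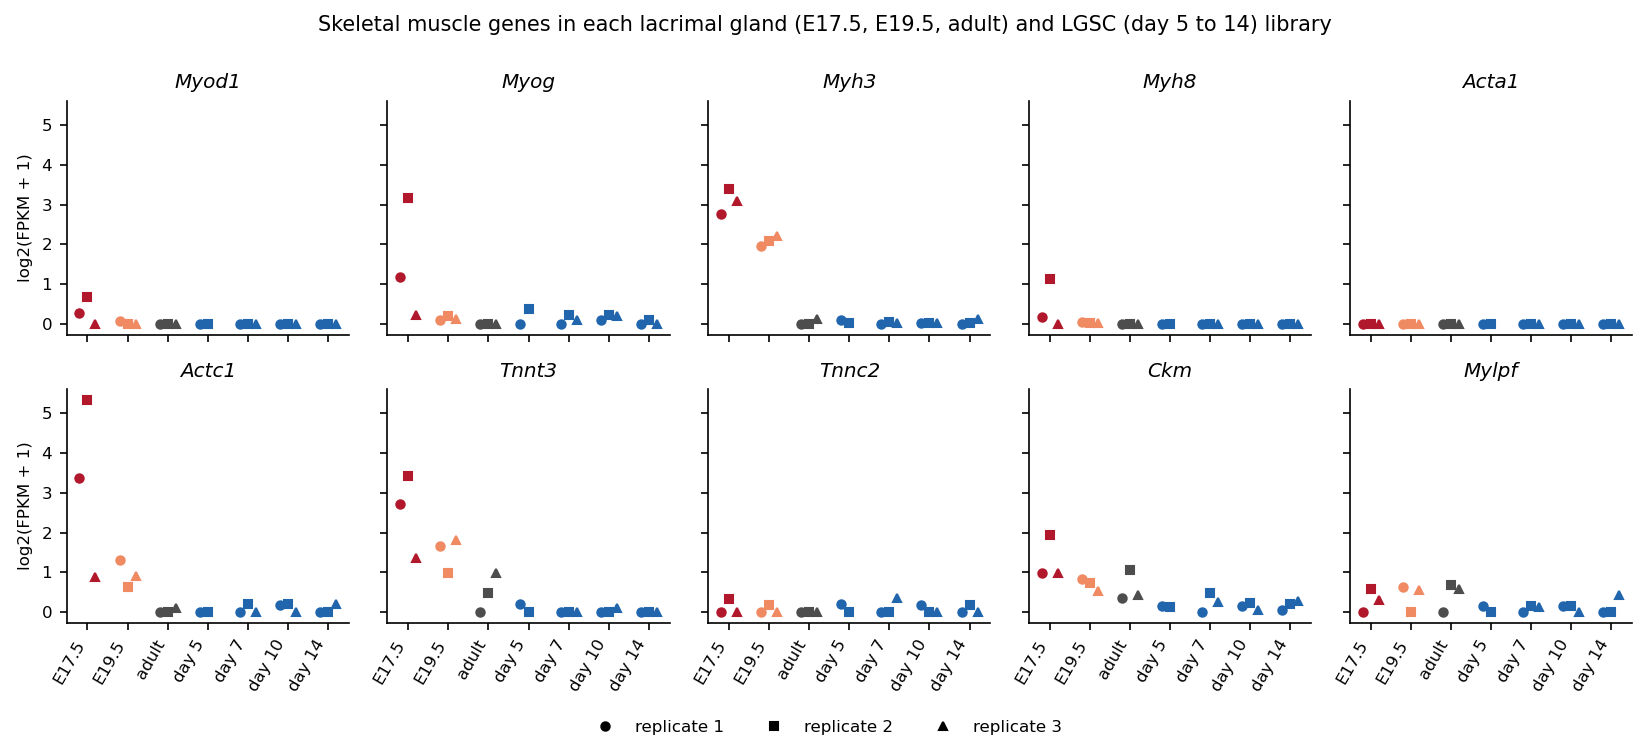
Level of each of the 10 genes as log2(FPKM + 1) in every gland library (E17.5, E19.5, adult) and passage 2 LGSC library (day 5 to 14), with 1 point per library and the symbol giving the replicate number. Myog, Actc1, Tnnt3 and Myh8 are highest in E17.5 replicate 2, Myh3 lies apart from the adult in all 6 embryonic libraries, and the LGSC libraries reach at most 0.395 FPKM (Ckm).

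The first comparison asks which genes differ between the gland before birth and the adult gland. At E17.5, Myh3 and Tnnt3 were higher than in the adult, past the threshold of an adjusted p under 0.05, and Ckm did not pass, against a background of 54% of 18578 tested genes called in either direction and 29.1% called higher. Myh3 was higher by a log2 value of 3.04 ± 0.175 (SE) on the scale of FPKM + 1, which is 8.24-fold on that scale, with a limma adjusted p of 3.39e-06. Tnnt3 was higher by 2.001 ± 0.501 (limma adjusted p = 0.00915), and Ckm had a log2 difference of 0.68 (adjusted p = 0.0804). Of the pair that the filter kept through E17.5, Actc1 had a log2 difference of 3.16 ± 0.901 (limma adjusted p = 0.0168, and 0.0318 with no filter). Myog had one of 1.53 (adjusted p = 0.0608), which also rests on the pseudocount because the adult glands were at 0. Of the tested members Myh3 and Tnnt3 lay above all 3 adult glands in each E17.5 library, as did 32.3% of the genes tested. So did Actc1 and Myog, which the filter kept through E17.5. Myog in E17.5 replicate 3 (0.167 FPKM) was below what 1 read stood for in adult replicates 1 and 2 (0.277 and 0.211 FPKM). The standard error of Actc1 was the largest of the 5 tested members and that of Myh3 the smallest. Without E17.5 replicate 2 the log2 difference of Actc1 was 2.09 with an adjusted p of 0.0282, without E17.5 replicate 3 that of Myog was 2.18 (adjusted p = 0.00864), and without E17.5 replicate 2 Myog was below the filter. Ckm passed without adult replicate 2 (0.90, adjusted p = 0.0409) and with limma-voom on the recovered reads (2.42, adjusted p = 0.00647).

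At E19.5, Myh3 alone of the 5 tested members passed against the adult, where 54.2% of tested genes were called and 30.3% were called higher. Myh3 was higher by a log2 value of 2.04 ± 0.175 (SE; limma adjusted p = 3.38e-05), 4.11-fold on the scale of FPKM + 1. The log2 differences of Tnnt3 (0.99, interval -0.15 to 2.14), Actc1 (0.91, interval -1.15 to 2.97), Myog (0.14, interval -1.24 to 1.53) and Ckm (0.07, interval -0.60 to 0.75) had limma adjusted p-values of 0.125, 0.421, 0.862 and 0.854 (95% intervals). Of the tested members Myog, Myh3 and Actc1 lay above all 3 adult glands in each E19.5 library, as did 33% of the genes tested. For Myog, 1 read stood for 0.277 and 0.211 FPKM in adult replicates 1 and 2, above its E19.5 values. These adult libraries could not have shown a level as low, so its separation there carries no information. Tnnt3 passed with limma-voom (adjusted p = 0.0334) and in a fit of these 6 libraries alone (adjusted p = 0.0486).

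The scale of the adult libraries bears on these counts more than on the members. As deposited, the E17.5 comparison split into 5405 higher and 4634 lower genes. Scaled to the recovered reads, 8450 were higher and 1913 lower, and the median over all genes moved from a log2 value of 0.05 to 0.64. At E19.5 the split was 5637 to 4440 as deposited and 8054 to 1842 scaled, with medians of 0.09 and 0.58. The log2 difference of Myh3 between E17.5 and adult was 3.09 on the second scale, that of Actc1 3.20 and that of Tnnt3 2.15, so each stayed above either median, and Ckm passed on that scale (0.98, limma adjusted p = 0.013).

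Between the embryonic stages the direct comparison asks what changes in the last days before birth. Of the 5 tested members Myh3 passed, and it was lower at E19.5, against a background of 1.74% of tested genes called and 0.624% called lower. Its log2 difference was -1.001 ± 0.175 (SE; limma adjusted p = 0.0341), a 2-fold fall on the scale of FPKM + 1, and it was lower in 3 of 3 libraries. It missed the threshold once any 1 of the 6 embryonic libraries was left out (adjusted p = 0.0585 without E17.5 replicate 1 to 0.136 without E19.5 replicate 2), while its log2 difference stayed between -0.84 and -1.16. The log2 differences of Actc1 (-2.25, interval -4.31 to -0.19), Myog (-1.39, interval -2.77 to -0.0030), Tnnt3 (-1.01, interval -2.15 to 0.14) and Ckm (-0.61, interval -1.29 to 0.06) had adjusted p-values of 0.28, 0.327, 0.398 and 0.385, and Actc1 passed without E17.5 replicate 3 (-3.40, adjusted p = 0.0354). Of the tested members Myh3 and Ckm were lower in each E19.5 library than in any E17.5 library, as were 15.3% of all tested genes. So was Myog, which the filter kept through E17.5 and which had only 2 reads in E17.5 replicate 3. In the deposited scale 64.1% of all calls were higher at E19.5, and 49.5% when scaled to recovered reads.

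**Figure D3:**
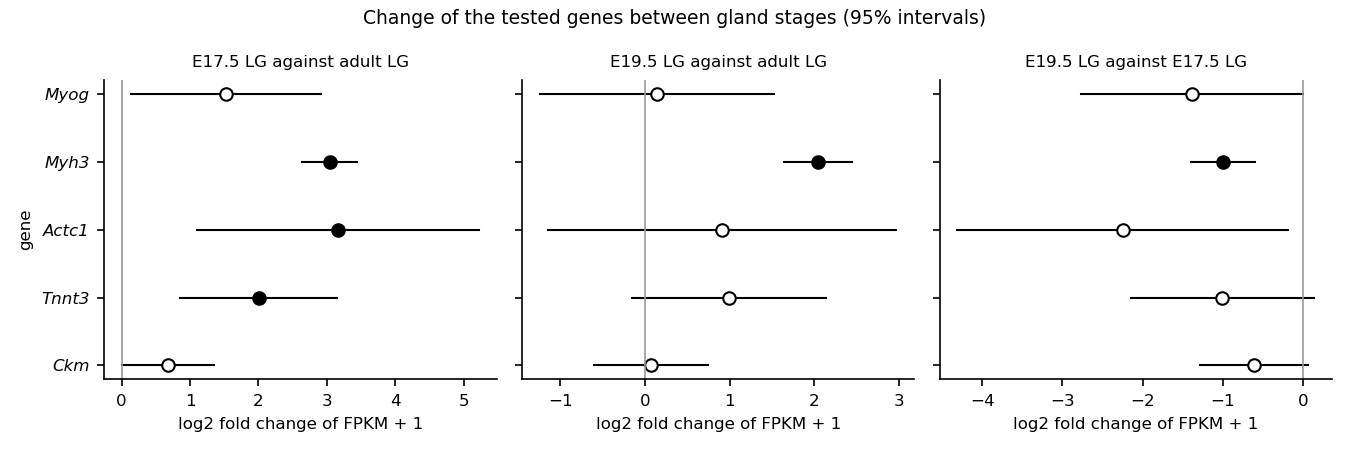
Log2 fold change of FPKM + 1 (horizontal axis) with its 95% interval for the 5 tested genes in the 3 gland comparisons, filled where the adjusted p is under 0.05 and open where it is not. Myh3 has the shortest interval in each panel and is filled in all 3, and Actc1 has the longest.

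The E17.5 libraries differed among themselves in most of these genes. Replicate 2 was the highest of the 3 for all 8 members with at least 5 reads in an embryonic library, while 31.2% of the 19489 genes with as many reads were highest there. Replicate 3 was the lowest for 5 of these 8 members, against 36.7% of all. Replicate 2 stood above replicate 3 by 46.2-fold in Actc1 (11 reads in replicate 3) and 6.10-fold in Tnnt3 (20 reads). The ratios of 114-fold in Myh8 and 47.7-fold in Myog rest on 1 and 2 reads in replicate 3, so that their size is uncertain. In Ckm replicate 2 stood 2.89-fold and in Myh3 1.27-fold above replicate 3, so that the list did not move as 1 block. As a share of the reads of the 10 genes, Myh3 made up 53.4% (Wilson 95% interval 49.1 to 57.7), 33.4% (31.2 to 35.7) and 86% (82.4 to 89.0) in E17.5 replicates 1 to 3. At E19.5 it made up 65% (58.6 to 70.8), 79.6% (73.8 to 84.4) and 74.5% (68.5 to 79.7). Actc1 made up 23.1%, 36.8% and 2.61% at E17.5 and 8.97%, 3.62% and 4.76% at E19.5. The Wilson intervals cover counting error only, and reads without molecular identifiers are not independent molecules. These shares are of reads without correction for length, and Myh3 has 6057 exon bases beside 1618 of Actc1. The Myh3 to Actc1 ratio in FPKM ran from 0.243 in E17.5 replicate 2 to 8.82 in E17.5 replicate 3. In E17.5 replicate 1 it was 0.618, so that Actc1 was the higher of the pair there by FPKM.

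The rest of the muscle programme was sparse in the same libraries, as 80 further genes in 5 lists show. Of these, 27 could be tested in the glands. At E17.5, 13 were higher (48.1%, beside 29.1% of all genes) and 1 lower than in the adult, and at E19.5, 8 were higher and 2 lower. None passed between the embryonic stages, where the median log2 difference of the 27 was -0.15 against 0.02 over all genes. Among the 13, Myl1, Mymx, Cdh15 and Myot reached the mean of 0.5 FPKM only through E17.5, where they were high, so that the count at E17.5 was in part fixed by the filter. At E19.5, 8 of 27 is 29.6%, beside 30.3% of all genes. The counts of genes higher than in the adult in each list below stand beside the same shares of all genes (29.1% at E17.5 and 30.3% at E19.5).

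Of 15 regulators and progenitor genes, 5 could be tested, and Mymx and Cdh15 were among those that passed at E17.5 against the adult. Mymk and Mymx, which encode the myomaker and myomixer proteins that fuse myoblasts, were read at E17.5. Mymk stood at 0.340, 1.24 and 0 FPKM there and was listed at 0 in the other gland libraries. Mymx stood at 0.876, 2.02 and 0.365 FPKM at E17.5 and at 0.891, 0.108 and 0.124 at E19.5, and passed at E17.5 against the adult (0.93, limma adjusted p = 0.0331). This call was lost with no filter (0.055), with the replicate block (0.0502) and without adult replicate 1 (0.0748) or 2 (0.0811), while without E17.5 replicate 1 or 2 Mymx was below the filter. Cdh15, the M-cadherin of myoblasts and satellite cells, passed as well (1.04, limma adjusted p = 0.0106), but LGSC cultures reached 1.27 FPKM of it. The satellite cell factor Pax7 and the muscle factor Myf5 stayed at or below 0.283 and 0.249 FPKM in the embryonic glands.

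In the thick filament list 2 of 15 genes could be tested and Myl1, the essential light chain of fast fibres, passed at E17.5 against the adult (1.81, limma adjusted p = 0.033). The other, Myom1, went the other way and did not pass (-0.39, limma adjusted p = 0.068). Its means were 3.15 FPKM at E17.5, 3.97 at E19.5 and 4.51 in the adult. The call of Myl1 was lost with no filter (0.059), in a fit of these 6 libraries alone (0.0751), without E17.5 replicate 1 (1.63, adjusted p = 0.0971) or 2 (1.17, adjusted p = 0.0928) and without any 1 adult replicate (adjusted p of 0.0528 to 0.0775). Myl1 stood at 3.66, 7.80 and 0.181 FPKM at E17.5 and at 0.607, 0.215 and 0.246 at E19.5, the same order of libraries as Actc1 at E17.5. The adult myosins Myh1, Myh2 and Myh4 reached at most 0.121, 0.233 and 0.0690 FPKM in the embryonic glands. Of the myosin heavy chains Myh3, Myh8, Myh1, Myh2 and Myh4 together, the developmental pair Myh3 and Myh8 made up 94.2%, 96.5% and 96.8% of the FPKM at E17.5 and 94.0%, 97.5% and 95.6% at E19.5, a difference of -0.18 points that was smaller than the spread (two-sided exact permutation p = 0.9, 3 against 3, where 0.1 is the smallest p possible). Of Myh3 and Myh8 alone, Myh3 made up 97.8%, 88.7% and 99.9% at E17.5 and 98.7%, 99.1% and 99.4% at E19.5 (exact permutation p = 0.4). In the adult these sums were under 0.5 FPKM. Myl4, the light chain of embryonic muscle, made up 5.72% and 4.65% of Myl4 plus Myl1 in E17.5 replicates 1 and 2 and 26.8% in E19.5 replicate 1, and the other gland libraries were below 0.5 FPKM in sum, so no test was made. The share of Actc1 in Actc1 plus Acta1 was 100% in all 6 embryonic libraries, which holds no information because Acta1 was listed at 0.

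In the thin filament and Z disc list 9 of 21 genes could be tested, and 4 were higher at E17.5 than in the adult. They were led by Tpm2, a tropomyosin of slow fibres and smooth muscle (1.76, limma adjusted p = 0.00569), Actn3, the actinin of fast fibre Z discs (1.08, adjusted p = 0.00596), and Myot, another Z disc protein (1.06, adjusted p = 0.000214). Tpm2 stood at 14.7 to 43.4 FPKM in the passage 2 LGSC libraries and thus above every gland library, while Myot was listed at 0 in all of them and in the adult, so that its fitted difference rests on the pseudocount. Myot stood at 0.989, 1.27 and 1.02 FPKM at E17.5 and at 0.725, 0.554 and 0.404 at E19.5. At E19.5, 3 of the 9 were higher than in the adult, and Ldb3, a Z disc adaptor, was lower (-0.79, limma adjusted p = 0.0125), though not when scaled to recovered reads (-0.40, adjusted p = 0.263) or with limma-voom (adjusted p = 0.25).

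Of the list of calcium release and energy genes, 8 of 21 could be tested, and 3 were higher and 1 lower than in the adult at either stage. The higher genes were Pygm, Ampd1 and Myh7b, which encodes a myosin heavy chain and not a calcium release or energy protein. Myh7b was higher by 1.09 at E17.5 (limma adjusted p = 0.000131) and by 0.94 at E19.5 (adjusted p = 0.000326). Pygm, the glycogen phosphorylase of muscle, stood at 25.4, 29.0 and 26.9 FPKM at E17.5, at 13.8, 16.0 and 13.5 at E19.5 and at 1.93, 2.65 and 6.76 in the adult (2.68 at E17.5, limma adjusted p = 0.000167). Ampd1, the muscle AMP deaminase, stood at 3.37, 3.01 and 3.95 FPKM at E17.5 and at most at 0.234 in the adult (1.94, adjusted p = 2.29e-05). Like Myh3, neither was lowest in E17.5 replicate 3. The LGSC cultures held both, with 0.510 to 3.32 FPKM of Ampd1. Pygm had means of 3.59 FPKM at LGSC day 7 and 3.03 at day 14, beside 3.78 in the adult. Pgam2 and Pvalb of this list were listed at 0 in the gland and passage 2 libraries. Eno3, the muscle enolase, went the other way, with 0.597 to 1.51 FPKM at E17.5 and 6.35 to 6.67 in the adult (-1.84, adjusted p = 0.000303).

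Of the 8 genes of the acetylcholine receptor and synapse, 3 could be tested. Dok7, an activator of the receptor-clustering kinase MuSK, was higher than in the adult at both embryonic stages, by 1.04 (limma adjusted p = 0.00136) and then 0.61 (adjusted p = 0.0189), and Chrne, the adult epsilon subunit, at E17.5 (0.63, adjusted p = 0.0447). The E19.5 call of Dok7 was lost without E19.5 replicate 2 (adjusted p = 0.0653). That of Chrne was lost with a pseudocount of 0.1 (0.0754), with no filter (0.0777), in the 6 libraries alone (0.0669), without any 1 E17.5 replicate (adjusted p of 0.0794 to 0.107) and without adult replicate 1 (0.117) or 3 (0.0506). The fetal subunit Chrng had 0.0309, 0.449 and 0 FPKM at E17.5 and made up 3.03%, 27.8% and 0% of Chrng plus Chrne. At E19.5 it made up 2.47% and 0% in replicates 2 and 3, and replicate 1 was below 0.5 FPKM in sum (difference -9.03 points, exact permutation p = 0.6, 2 against 3 libraries). With an E17.5 library left out the difference of the Chrng share ran from -14.2 to -0.277 points, the last without E17.5 replicate 2.

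**Figure D4:**
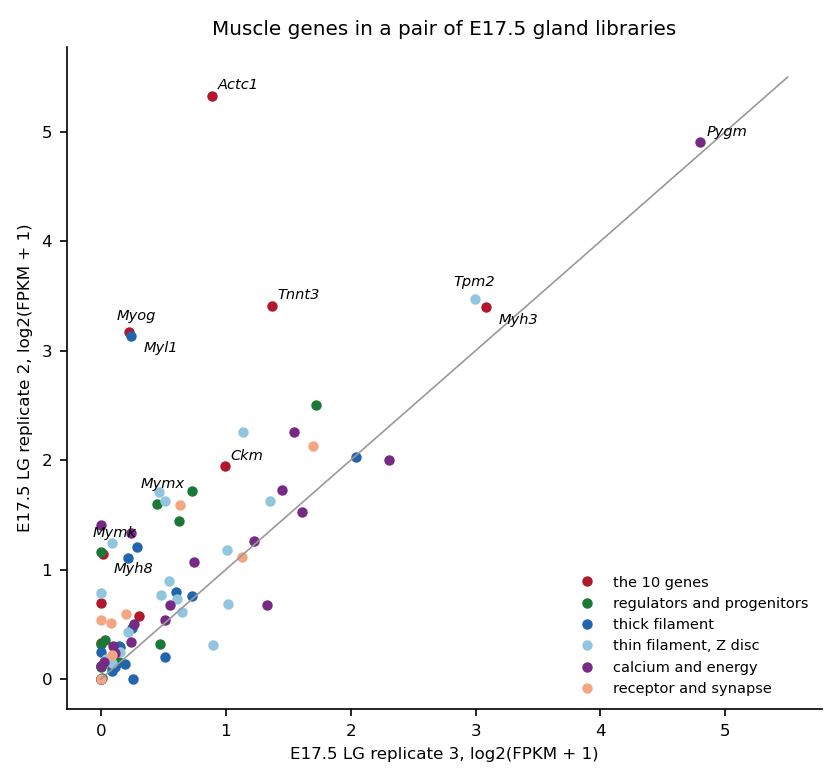
Level of each gene of the 6 muscle lists in E17.5 LG replicate 2 (vertical axis) against replicate 3 (horizontal axis), both as log2(FPKM + 1), with the line of equal values. Actc1, Myog, Myl1 and Tnnt3 lie far above the line, while Myh3 and Pygm lie close to it.

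Marker lists of other tissues were read in the same libraries. Of the 9 heart genes 1 (Myl7) could be tested in the gland comparisons and did not pass (limma adjusted p of 0.0585 to 0.991), and Myh6 reached at most 0.0901 FPKM in the embryonic glands. The 8 smooth muscle and myoepithelial genes summed to 180 to 359 FPKM at E17.5, 1101 to 1185 at E19.5 and 128 to 640 in the adult, mostly Acta2, and their sum did not follow that of the skeletal genes. In this list E17.5 replicate 2 was the highest of its group for 0 of 7 genes with at least 5 reads. Cartilage genes were present at both embryonic stages, where the 7 genes summed to 348 to 364 FPKM at E17.5, 233 to 273 at E19.5 and 2.0 to 23.6 in the adult. Col2a1, the main collagen of cartilage, fell from 94.1, 97.9 and 72.7 FPKM at E17.5 to 8.27, 6.84 and 8.41 at E19.5 (-3.33, limma adjusted p = 0.000197). Col2a1 moved with Myh3 between the stages, and its part in the result was not tested. The other tested cartilage genes did not pass between these stages. They were Col9a1 (-0.08), Col9a2 (-0.42, limma adjusted p = 0.683) and Col11a2 (-0.20, adjusted p = 0.684). Fat genes summed to 1.62 to 3.70 FPKM at E17.5 and 2.44 to 10.3 at E19.5. Adipoq had a log2 difference of 1.23 between E19.5 and adult (limma adjusted p = 0.00921), but the filter kept it only through E19.5, where it was high. The Schwann cell genes summed to 19.7 to 27.7 FPKM at E17.5, 24.3 to 28.1 at E19.5 and 16.6 to 35.8 in the adult. In the passage 2 LGSC libraries they summed to 16.1 to 28.7 FPKM, so that their sum was not particular to the glands. At E17.5 Prx was higher than in the adult (1.41, limma adjusted p = 0.00382) and Mbp lower (-0.63, adjusted p = 0.00969). The difference of Mbp was 0.25 when scaled to recovered reads. The acinar markers Mucl2 and Pigr defined the adult libraries (Mucl2 from 171250 to 807360 FPKM, Pigr from 158 to 446) and were at most 46.0 and 0.0571 FPKM in the embryonic ones. At E19.5 the keratin Krt18 was higher than at E17.5 (1.61, adjusted p = 0.0183), but not when scaled to recovered reads (0.173), with limma-voom (0.184), without E19.5 replicate 2 (0.0877) or 3 (0.088) or without E17.5 replicate 1 (0.103) or 2 (0.0884). Epithelium was present in all glands, with 121 to 178 FPKM of Cdh1, while Epcam and Krt8 were listed at 0.

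Among all genes outside the lists with a mean of at least 1 FPKM, those most like the 10 members over the 9 gland libraries were ranked by Pearson's r with the mean of the members' standardized log2(FPKM + 1), which is a description over libraries that share stage and depth. The first were Thbs4, a matrix protein of tendon and muscle (r = 0.925), Krt1, a keratin of the upper epidermis (r = 0.924), Fgfr4, an FGF receptor (r = 0.914), and Hmx1, a homeobox factor (r = 0.903). Thbs4 stood at 5.08, 13.2 and 2.55 FPKM at E17.5, 1.98, 1.35 and 1.82 at E19.5 and at most 0.359 in the adult, and kept r = 0.932 without E17.5 replicate 2. Hmx1 kept 0.935 and Fgfr4 0.72. Krt1 stood at 7.17 FPKM in E17.5 replicate 2 and at no more than 0.468 in the other glands, and its r without that library was 0.187. Among the members themselves r was 0.965 for Myog, 0.95 for Actc1, 0.896 for Tnnt3 and 0.71 for Myh3, each of which is part of the mean it is compared with. The other 6 were Gm26369, Gm10180, Gm38190, Gm13781, Hist1h2bk and an assembled locus, with r of 0.861 to 0.889.

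The LGSC cultures held traces of these genes. Over the 11 passage 2 libraries, 42 of 110 values were above 0, and the highest was Ckm in day 7 replicate 2 with 0.395 FPKM on 9 reads. Day 7 replicate 1 had no read of any member, and replicates 2 and 3 had 16 and 10 reads. The libraries of day 14 had 1, 7 and 15 reads, those of day 10 had 9, 10 and 5, and those of day 5 had 11 and 6. Myh3 was read in 9 of the 11 with at most 5 reads, and Myod1, Myh8 and Acta1 in none. None of the 10 members reached 0.5 FPKM in the mean of the libraries compared, and so none was tested between day 7 and adult LG, where 35.2% of 17698 tested genes were called, or between day 14 and day 7, where limma called 0 of 15744 (1557 at an unadjusted p under 0.05). Against the adult glands (2, 14 and 29 reads) the day 7 libraries overlapped in the summed reads. Of the 80 further muscle genes 17 could be tested between day 7 and adult LG, 4 of them higher (23.5%) and 3 lower (17.6%). Of all 17698 genes tested, 2507 were higher and 3731 lower. The higher genes were Tpm2 (2.85, limma adjusted p = 0.00573), the troponins Tnni1 (1.28, adjusted p = 0.0233) and Tnni2 (0.78, adjusted p = 0.0471), and Ampd1 (0.99, adjusted p = 0.0245). Tnni1, Tnni2 and Ampd1 reached the mean of 0.5 FPKM only through day 7, where they were high, so that their tests are given as descriptions. The lower genes were led by Eno3 (-2.36, adjusted p = 0.000362) and reached that mean only through the adult glands.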

How the data were processed

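Poly(A) RNA of mouse LG and LGSC libraries was sequenced, and the deposited values are FPKM, which the authors made from reads counted per gene and divided by gene length and library scale. The submitters' processing notes name CASAVA 1.8, HISAT2 2.0.5, featureCounts 1.5.0-p3 and the build NCBIM37, while exon lengths of GENCODE M21 (GRCm38) returned whole reads, so positions and RefSeq promoters are given on GRCm38 and read as gene identity only. Of 24 samples, 21 were analysed here (day 5 replicate 3, passage 6 and passage 20 were not), and the passage 10 library, which has another gene list (52747 genes), entered no test. Symbols were matched for 137 of 139 listed genes.

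Dividing the FPKM by the step of 1 read gave a whole number within 0.01 for 92.6% to 93.6% of values up to 1000 reads in the 20 libraries of the gland and passage 2. In adult replicates 1 and 2 the deposited scale was far from the recovered reads, and the fit was repeated on values scaled to those reads.

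Groups came from the titles and labels. limma 3.58.1 (R 4.3.3) was fitted to log2(FPKM + 1) of those genes whose mean reached 0.5 FPKM, with the 9 gland libraries in 1 fit and the LGSC comparisons in their own, and p-values were adjusted by Benjamini-Hochberg over all genes tested (threshold 0.05). The 3 gland comparisons share libraries. A fold change on this scale understates that of low genes. Shares of paired isoforms were compared by two-sided exact permutation tests where the summed level reached 0.5 FPKM. The script was tested on simulated data. Genes named were the 10 members, up to 3 called genes of each list and comparison with the largest change, the genes of the shares and the 10 most similar profiles. Mymk, Pax7, Myf5, Myh6, Myh7b, Cdh1, Col11a2, Pgam2 and Pvalb were named after their values were seen, as were the zero-listed control genes. One gene of the regulator list is not reported here. The members and lists were chosen with earlier results of these data known. Same-numbered gland libraries did not deviate together (r of -0.0775 to 0.0663), whereas those of LGSC day 14 and day 7 did (0.255, 0.6 and 0.257). Day 14 replicate 1 correlated more with day 7 replicate 3 (0.413) than with its own number, however. The data therefore gave no clear pairing by number there, and no label gives one. No member was tested in that comparison and 0 genes were called with or without the block. Alternatives were a pseudocount of 0.1, no filter, scaling to recovered reads, limma-voom, a replicate block, 2 groups alone and leaving out each library.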

Additional observations from a re-analysis of the deposited data

Results flagged for a closer look

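The passage 10 library, which entered no comparison, held a read level of Acta1 of 0.63 FPKM (23 reads), while the gene was listed at 0 in all passage 2 and gland libraries. It also held Mylpf at 1.11 FPKM (28 reads), against at most 0.34 FPKM in the passage 2 libraries. Both come from 1 library with another gene list, and no test was possible.

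The embryonic excess of Myh3 over the adult differed between E17.5 and E19.5 by a log2 value of -1.001 (limma adjusted p = 0.0341, E19.5 minus E17.5, the same contrast as the direct comparison of the stages since both share the adult libraries). The value was lower in 3 of 3 E19.5 libraries, and the call was lost when any 1 embryonic library was left out (adjusted p of 0.0585 to 0.136).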

How the results depend on the processing

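Of the values given for single genes, 851 kept their direction and call under the alternatives, 80 lost the call and 11 gained it. Between the embryonic stages 323 genes were called as reported, 162 with a pseudocount of 0.1, 186 when scaled to recovered reads, 40 with limma-voom, 100 with a replicate block, 2144 in the 2 groups alone and 50 to 197 with 1 library left out. Myh3 was the member called there, and 0 members were called with a pseudocount of 0.1, without a filter, with limma-voom or with the replicate block, and 0 to 1 with a library left out; the cause was not tested. Against the adult, E17.5 had 5 members called with limma-voom (Myog and Actc1, kept by the filter through E17.5, among them) and 3 to 4 with a library left out, and E19.5 had 2 with limma-voom or in the 2 groups alone and 1 in each fit with a library left out. Leaving out a library gave 8428 to 11669 genes at E17.5, 8388 to 11701 at E19.5 and 3770 to 8135 for LGSC day 7 against adult LG. The numbers of gland libraries did not pair them, although each E19.5 library correlated best with its own number at E17.5.

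The difference of Ckm between E19.5 and adult was -0.057 without adult replicate 1 and -0.016 without adult replicate 3. That of Mbp turned to 0.25 (scaled) and 0.29 (limma-voom) at E17.5 and to 0.21 and 0.25 at E19.5. The developmental myosin share differed by -1.09 to 0.68 points with a library left out, that of Myh3 in Myh3 plus Myh8 by 0.243 to 5.80, and the Actc1 share of Actc1 + Acta1 by -5.94 with 0.1 FPKM added to each gene. Depth limits Myod1, Tnnc2, Mylpf and the adult values to a few reads, and a gene listed at 0 may have been missed in the counting.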
